A study of Mus musculus with 6 samples.

Results

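The genes described here are 34 genes of DNA replication and S phase, the part of the cell cycle in which the genome is copied. They were chosen by symbol from the 27179 genes of the deposited table, and each symbol matched 1 row. The set holds 5 origin licensing genes, 10 helicase genes, 8 genes of the polymerases, sliding clamp and lagging strand, 4 of nucleotide supply, 5 S phase regulators and chromatin factors, and 2 DNA repair genes. All 34 had at least 10 normalized reads in at least 3 libraries and entered the test.

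The samples were organoids from the small intestine of wild-type (WT) mice, which are epithelial crypts kept in a drop of Matrigel in Intesticult medium. One group of 3 libraries came from organoids given the thyroid hormone T3 at 1e-07 M, and a second group of 3 from organoids given its vehicle, both for 17 h before RNA was taken for directional RNA sequencing. Whether replicates were grown as separate cultures or from separate mice is not stated in the labels. The p-values therefore speak of the scatter among these 6 libraries, part or all of which could be technical. Levels are the authors' normalized reads, that is, read numbers of each gene after scaling and rounding, and are given as mean ± SD with n = 3 per group.

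Before S phase, the origin recognition complex with Cdc6 and Cdt1 loads the Mcm2 to Mcm7 ring on DNA, a step called licensing. Cdc45 and the GINS complex then join the ring to form the active helicase, and primase, polymerases, the clamp Pcna and its loader copy both strands. Many of these genes are switched on together by E2F transcription factors as cells pass from G1 into S phase, and in the intestine the cells that replicate lie in the crypt.

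Each T3 library summed to 29510422 to 29974091 normalized reads, and each vehicle library to 28197080 to 28611883. Epithelial markers were abundant, with 8 of 8 tested and sums of 179838 to 185298 with T3 and 152619 to 160138 with vehicle. Of 20 markers of fibroblasts and smooth muscle, immune cells, and endothelial, neural and glial cells, 7 were tested. Their summed levels per list were 60 to 414 normalized reads with T3 and 86 to 388 with vehicle, and Cdh5, Kdr and Sox10 were listed at 0 in every library. The immune sum was 395 to 414 with T3 and 129 to 163 with vehicle, and most of it was Itgam, a myeloid integrin, at 350, 341 and 356 normalized reads with T3 against 81, 100 and 111 with vehicle. The 4 crypt stem cell markers Lgr5, Olfm4, Ascl2 and Smoc2 all fell, and their sum was 20840 to 23046 with T3 and 49837 to 57082 with vehicle. The sum of 4 enterocyte markers was 51260 to 63214 with T3 and 31013 to 33305 with vehicle. Of these, Sis and Alpi, brush border enzymes, rose 2.42-fold and 2.27-fold, and Fabp1 and Apoa4 were not called. The part of these markers in the results on replication genes was not tested, and in bulk RNA fewer cells of a type and less RNA per cell cannot be told apart.

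Promoter sequences were taken from RefSeq on build GRCm38.p6, as windows of 300 bases from 250 before to 50 after each start, and 29 of the 34 genes had at least 1 of them. Matches to the E2F-type letters TTTCCCGC, TTTCGCGC, TTTGCCGC or TTTGGCGC on either strand were found in 12 of 35 windows of these genes, or 34.3%, and in 744 of 32851 windows of all genes, or 2.26%. The stretches shown here were picked for the largest number of matches (Mcm6), for a pair that overlaps (Mcm5), for the gene with the largest fall (Orc1), and for both genes that rose (Rrm2 and Cdc45). Capitals mark E2F-type letters and the CCAAT box, which reads ATTGG on the other strand.
Mcm6, chr1:128359706-128359855, minus strand: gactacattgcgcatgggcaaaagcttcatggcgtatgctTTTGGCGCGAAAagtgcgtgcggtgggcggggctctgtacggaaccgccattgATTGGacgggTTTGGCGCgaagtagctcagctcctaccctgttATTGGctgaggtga
Mcm5, chr8:75109349-75109498, plus strand: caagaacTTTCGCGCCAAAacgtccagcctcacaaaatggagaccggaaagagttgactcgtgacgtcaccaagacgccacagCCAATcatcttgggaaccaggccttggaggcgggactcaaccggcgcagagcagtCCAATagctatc
Orc1, chr4:108579304-108579453, plus strand: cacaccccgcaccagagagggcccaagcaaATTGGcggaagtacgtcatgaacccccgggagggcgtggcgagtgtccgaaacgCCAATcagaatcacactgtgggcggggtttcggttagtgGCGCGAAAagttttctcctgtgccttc
Rrm2, chr12:24708104-24708253, plus strand: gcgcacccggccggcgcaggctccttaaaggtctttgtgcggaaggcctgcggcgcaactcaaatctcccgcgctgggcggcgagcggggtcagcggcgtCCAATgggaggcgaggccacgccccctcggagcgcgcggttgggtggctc
Cdc45, chr16:18811973-18812122, minus strand: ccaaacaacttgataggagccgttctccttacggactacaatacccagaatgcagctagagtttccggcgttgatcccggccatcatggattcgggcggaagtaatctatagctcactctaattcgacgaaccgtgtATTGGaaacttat

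The Mcm6 stretch held 3 E2F-type matches, of which 2 overlap in a single run of capitals, and the Mcm5 stretch held 2 that overlap. The Orc1 stretch had 1, beginning 27 bases before the start. The whole windows of Rrm2 and Cdc45 had none, and each had a CCAAT box in the stretch shown.

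Of the 34 genes, 19 fell with T3, 2 rose and 13 were not called, at an adjusted p under 0.05 by limma over all 13052 genes tested. Over all these genes 20.8% fell and 24.0% rose. The share that fell in the replication set, 55.9%, was above this background and the share that rose, 5.88%, below it. The set was chosen with earlier results of these data known, so these shares describe it and test nothing. With equal column totals 3851 of all genes fell and 2442 rose and with upper-quartile scaling 3474 fell and 2616 rose, against 2716 and 3135 with the deposited scaling. The falls were small. They ran from Tk1, which fell by 7.53%, to Orc1, which fell by 23.3%. The median log2 fold change over the 34 genes was -0.16, against -0.0089 over all genes tested. Every T3 library lay below every vehicle library for 21 of the 34 genes (26.5% of all genes tested) and above for 3 of them (28.4%).

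**Figure D1:**
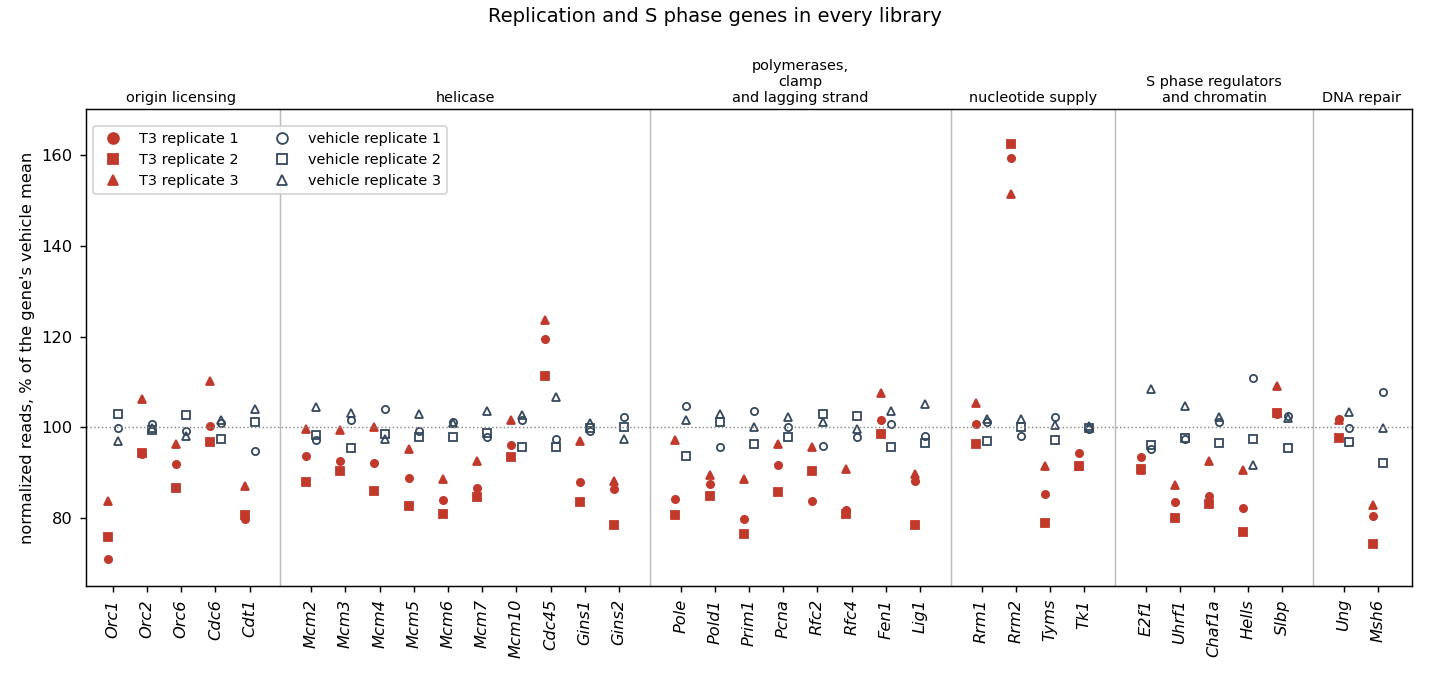
Normalized reads of each of the 34 genes in every library, as a percentage of that gene's vehicle mean, with T3 libraries as filled red symbols left of the open vehicle symbols and one symbol shape per replicate number. Rrm2 stands far above 100 in all 3 T3 libraries, Cdc45 above it, and most other genes below it, with T3 replicate 3 the highest T3 library in 30 of 34 genes.

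**Figure D2:**
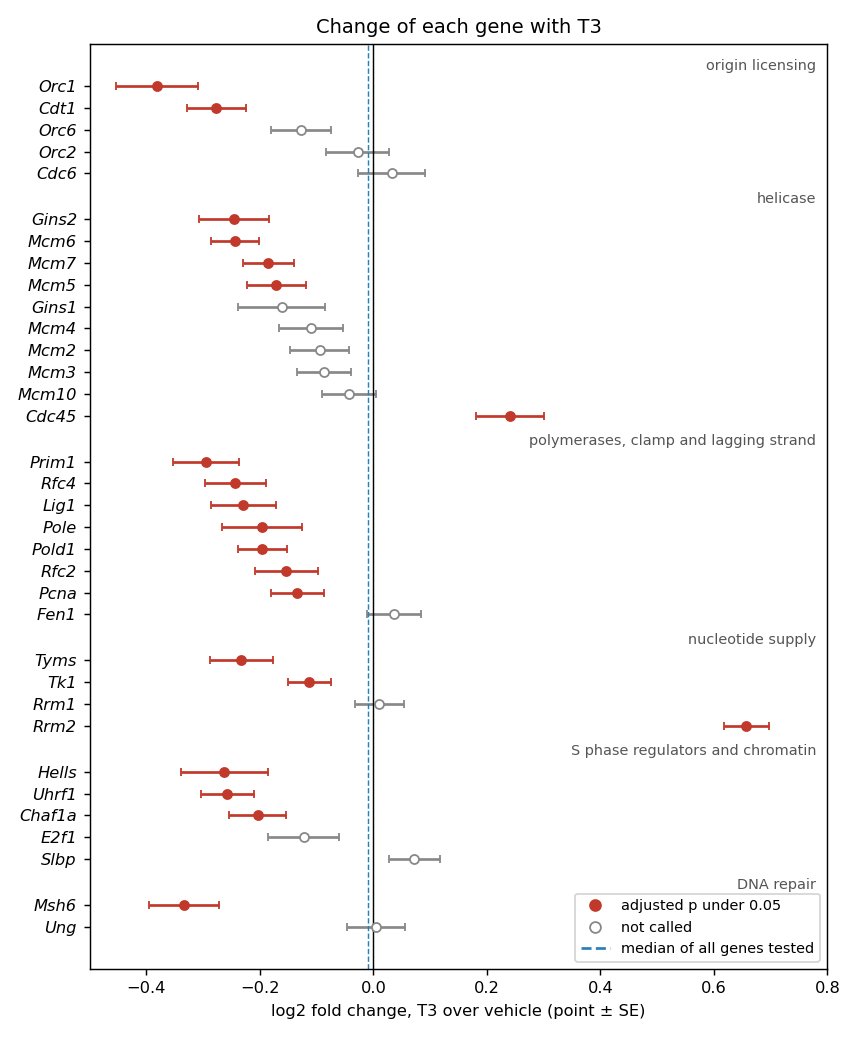
Log2 fold change of T3 over vehicle for each gene (point) with its standard error (bar), ordered by size within role, with filled points for an adjusted p under 0.05 and a dashed line at the median of all 13052 genes tested. Polymerase, clamp and lagging strand genes lie left of 0 except Fen1, whose sign turns under both other scalings, and Rrm2 and Cdc45 lie to the right.

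Origin licensing genes split, with 2 of 5 lower and 3 not called. Orc1, the largest subunit of the origin recognition complex (gene ID 18392, GRCm38 chromosome 4, 108579454 to 108614833), had 474, 507 and 560 normalized reads in T3 libraries, against 668, 688 and 649 in vehicle libraries. All T3 libraries were below all vehicle libraries, and Orc1 fell by 23.3%, the largest fall of the 34 (log2 -0.38 ± 0.072 SE, limma adjusted p = 0.00204). Cdt1, which helps to load the Mcm ring (gene ID 67177, chromosome 8, 122568015 to 122573130), had 1881, 1901 and 2052 normalized reads with T3, against 2233, 2385 and 2451 with vehicle. These groups did not overlap either, and the fall was 17.5% (log2 -0.28 ± 0.052 SE, limma adjusted p = 0.00186). Cdc6, the loading partner of Cdt1, averaged 1014 ± 69.3 normalized reads with T3 and 989.7 ± 22.4 with vehicle and overlapped (log2 0.033 ± 0.059 SE), and its sign turned under both other scalings. Orc2 overlapped as well, with 1281, 1284 and 1447 normalized reads with T3 and 1370, 1353 and 1359 with vehicle. Orc6 averaged 1145 ± 60.1 normalized reads with T3 and 1250 ± 31.4 with vehicle, did not overlap and missed the threshold (limma adjusted p = 0.0763), which it passed under both other scalings.

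Among helicase genes 4 of 10 fell, 1 rose and 5 were not called, and 8 fell without T3 replicate 3 or with equal column totals. Of the Mcm2 to Mcm7 subunits, which form a ring with a single copy of each, 6 of 6 had a negative log2 fold change and 3 of 6 fell. Mcm6 (gene ID 17219, chromosome 1, 128331591 to 128359656) had 6899, 6659 and 7279 normalized reads with T3, against 8319, 8042 and 8298 with vehicle. The groups were well apart and the fall was 15.5% (log2 -0.24 ± 0.042 SE, limma adjusted p = 0.00123), the smallest adjusted p among the 19 genes that fell. Mcm7 had 5150, 5038 and 5504 normalized reads with T3 and 5816, 5864 and 6152 with vehicle, again without overlap (log2 -0.18 ± 0.044 SE, limma adjusted p = 0.00746). Mcm5 had 5165, 4807 and 5530 normalized reads with T3 and 5760, 5690 and 5982 with vehicle. Its groups did not overlap (log2 -0.17 ± 0.052 SE, limma adjusted p = 0.0233), but the call was lost without vehicle replicate 3, T3 replicate 1 or T3 replicate 2 (up to adjusted p = 0.0863). Mcm2, Mcm3 and Mcm4 overlapped between groups, with log2 fold changes of -0.094, -0.087 and -0.11 and limma adjusted p-values of 0.169, 0.172 and 0.141. With equal column totals all 3 of these were called lower, and without T3 replicate 3 likewise.

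Per kilobase of exon, the same 2 of the 6 ring subunits led in both groups. Mcm6 was the most abundant at 2394 ± 108 normalized reads per kilobase with T3 and 2833 ± 53.2 with vehicle, and Mcm7 came next at 2183 ± 102 and 2481 ± 75.8. Mcm5 and Mcm3 could not be ordered with vehicle, at 1698 ± 44.6 and 1697 ± 69.3 normalized reads per kilobase, and stood at 1510 ± 106 and 1598 ± 80.5 with T3. Mcm2 and Mcm4 were the lowest. The level of the highest subunit was 2.17 ± 0.0700 times that of the lowest with T3 and 2.38 ± 0.0761 times with vehicle. Mcm6 made up 23.7% ± 0.243 of the summed level per kilobase of the ring genes with T3 and 25.1% ± 0.302 with vehicle, a ratio computed after the values were seen and not tested.

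The partners of the ring did not move together. Cdc45, which joins it to make the active helicase (gene ID 12544, chromosome 16, 18780447 to 18811972), had 1477, 1375 and 1530 normalized reads with T3, against 1206, 1184 and 1319 with vehicle. It rose by 18.1% with no overlap (log2 0.24 ± 0.059 SE, limma adjusted p = 0.00834). Gins2, a GINS subunit, had 677, 614 and 690 normalized reads with T3, against 801, 783 and 763 with vehicle. Its groups were apart and it fell by 15.7% (log2 -0.25 ± 0.062 SE, limma adjusted p = 0.00938), and 118 of its exon bases overlap Gse1 on the opposite strand, which was also lower at 1851 against 2222 normalized reads. Gins1 averaged 341.7 ± 26.0 normalized reads with T3 and 381.7 ± 3.06 with vehicle. Its groups did not overlap, with T3 below vehicle, but it was not called (log2 -0.16 ± 0.077 SE, limma adjusted p = 0.116). Mcm10, which helps to activate the helicase, averaged 2216 ± 93.7 and 2283 ± 86.3 normalized reads with T3 and vehicle and overlapped.

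**Figure D3:**
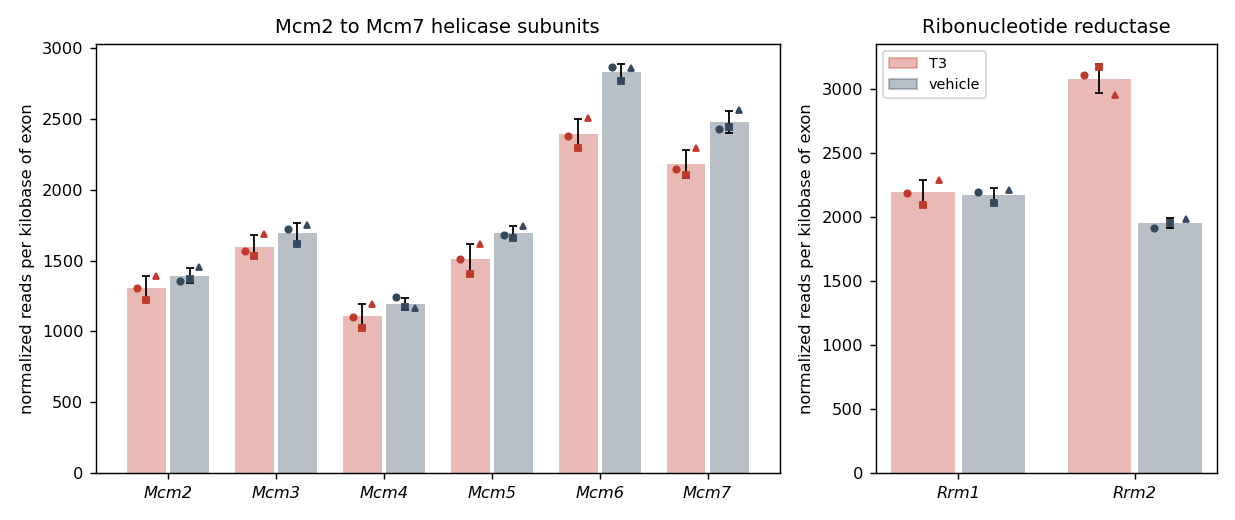
Normalized reads per kilobase of exon for the Mcm2 to Mcm7 ring subunits (left) and the ribonucleotide reductase subunits Rrm1 and Rrm2 (right), as bars for the mean, error bars for the SD (n = 3) and a symbol for each library, with T3 left of vehicle. The ring subunits keep Mcm6 and Mcm7 on top in both groups, and Rrm2 stands above Rrm1 with T3 and below it with vehicle.

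Of the polymerase, clamp and lagging strand genes 7 of 8 fell and none rose. The count was 4 of 8 without vehicle replicate 3, T3 replicate 1 or T3 replicate 2, and also without a filter on low values or without the mean-variance trend. Prim1, the catalytic subunit of primase, which makes the RNA primers (gene ID 19075, chromosome 10, 128015215 to 128030030), had 1804, 1732 and 2004 normalized reads with T3, against 2344, 2182 and 2263 with vehicle. It fell by 18.5% without overlap (log2 -0.30 ± 0.058 SE, limma adjusted p = 0.00256). Rfc4, a subunit of the clamp loader, had 1444, 1428 and 1601 normalized reads with T3 and 1726, 1808 and 1755 with vehicle. These groups were apart too (log2 -0.24 ± 0.053 SE, limma adjusted p = 0.00457), with 160 exon bases shared with Eif4a2 on the opposite strand, whose mean was 8329 normalized reads with T3 and 8316 with vehicle. Pold1, the catalytic subunit of polymerase delta, had 2807, 2720 and 2869 normalized reads with T3 and 3069, 3247 and 3305 with vehicle (log2 -0.20 ± 0.043 SE, limma adjusted p = 0.00463). Lig1, the ligase that joins lagging strand fragments, had 3728, 3318 and 3795 normalized reads with T3 and 4153, 4088 and 4452 with vehicle (log2 -0.23 ± 0.057 SE, limma adjusted p = 0.00917). Both genes had every T3 library below every vehicle library.

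Pcna, the sliding clamp and per kilobase the most abundant of the 34 genes in both groups, had 6666, 6234 and 6998 normalized reads with T3, against 7270, 7114 and 7431 with vehicle. It fell by 8.87% (log2 -0.13 ± 0.047 SE, limma adjusted p = 0.0419), and leaving out any single library except T3 replicate 3 ended the call. Rfc2, another clamp loader subunit, and Pole, the catalytic subunit of polymerase epsilon, had log2 fold changes of -0.15 ± 0.055 SE and -0.20 ± 0.071 SE, with limma adjusted p-values of 0.0471 and 0.0462. The groups of Rfc2 did not overlap but nearly met, at 1866 normalized reads in T3 replicate 3 and 1871 in vehicle replicate 1. The groups of Pole overlapped, with 2824 normalized reads in T3 replicate 3 and 2717 in vehicle replicate 2. Pole was no longer called without vehicle replicate 1, vehicle replicate 3, T3 replicate 1 or T3 replicate 2, and Rfc2 without vehicle replicate 2, vehicle replicate 3, T3 replicate 1 or T3 replicate 2. Fen1, the nuclease that trims lagging strand fragments, averaged 3417 ± 152 normalized reads with T3 and 3331 ± 135 with vehicle and overlapped (limma adjusted p = 0.56).

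Nucleotide supply genes went in different directions, with 1 of 4 higher and 2 lower. Rrm2, the small subunit of ribonucleotide reductase, which makes deoxyribonucleotides (gene ID 20135, chromosome 12, 24708254 to 24714146), had 6781, 6912 and 6441 normalized reads in T3 libraries, against 4173, 4259 and 4330 in vehicle libraries. The T3 libraries stood far above the vehicle libraries, and Rrm2 rose by 57.7% (log2 0.66 ± 0.040 SE, limma adjusted p = 1.24e-06), the largest change of the 34 genes. Rrm1, the large subunit of the same enzyme, averaged 8753 ± 389 normalized reads with T3 and 8686 ± 221 with vehicle, and its groups overlapped (log2 0.010 ± 0.043 SE, limma adjusted p = 0.868). Per kilobase, the level of Rrm2 over that of Rrm1 was 1.42, 1.51 and 1.29 in T3 replicates 1 to 3 and 0.871, 0.926 and 0.898 in vehicle replicates 1 to 3, a ratio chosen after the values were seen and given without a test. Rrm2b, an alternative small subunit that is outside the set, was at a low level and rose, at 37.2 ± 2.59 normalized reads per kilobase with T3 and 28.7 ± 2.15 with vehicle (log2 0.37 ± 0.11 SE, limma adjusted p = 0.0193). The Rrm2b call was lost without vehicle replicate 3, T3 replicate 1 or T3 replicate 2.

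Tyms, thymidylate synthase, had 2046, 1894 and 2194 normalized reads with T3, against 2452, 2335 and 2411 with vehicle. It fell by 14.9% without overlap (log2 -0.23 ± 0.055 SE, limma adjusted p = 0.00707), and the related entry Tyms-ps was listed at 1 to 9 normalized reads in the 6 libraries. Tk1, the thymidine kinase of the salvage route, had 1941, 1886 and 1885 normalized reads with T3 and 2052, 2058 and 2067 with vehicle. It fell by 7.53%, the smallest fall called (log2 -0.11 ± 0.038 SE, limma adjusted p = 0.0362), and leaving out any single library ended the call (adjusted p = 0.0565 to 0.107). Of its exon bases 88 overlap Afmid on the opposite strand, at 124 normalized reads with T3 and 174 with vehicle.

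Of 5 S phase regulators and chromatin factors, 3 fell and 2 were not called. Uhrf1, which binds newly copied DNA and helps to keep its methylation (gene ID 18140, chromosome 17, 56303337 to 56323486), had 4280, 4102 and 4478 normalized reads with T3, against 4995, 5009 and 5370 with vehicle. It fell by 16.4% with no overlap (log2 -0.26 ± 0.046 SE, limma adjusted p = 0.00155). Chaf1a, the large subunit of the chromatin assembly factor that loads histones behind the fork, had 2226, 2183 and 2429 normalized reads with T3 and 2653, 2536 and 2683 with vehicle (log2 -0.20 ± 0.050 SE, limma adjusted p = 0.00795). Hells, a chromatin remodeller, had 2617, 2452 and 2887 normalized reads with T3 and 3528, 3103 and 2921 with vehicle (log2 -0.26 ± 0.077 SE, limma adjusted p = 0.0193). The vehicle libraries of Hells were widely spread, and its call was lost without T3 replicate 1 or T3 replicate 2. E2f1, an activating E2F factor, averaged 793 ± 13.9 normalized reads with T3 and 865 ± 64.2 with vehicle, did not overlap and was not called (limma adjusted p = 0.139). Slbp, which binds the stem-loop of histone mRNAs and has the highest level per kilobase of this role, had 2800, 2805 and 2971 normalized reads with T3 and 2787, 2596 and 2778 with vehicle. All T3 libraries of Slbp were above all vehicle libraries, by a small margin that was not called (limma adjusted p = 0.225).

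The 2 DNA repair genes differed in their values. Msh6, a mismatch recognition protein (gene ID 17688, chromosome 17, 87975050 to 87990892), had 3295, 3045 and 3391 normalized reads with T3, against 4414, 3774 and 4089 with vehicle. It fell by 20.7% without overlap (log2 -0.33 ± 0.062 SE, limma adjusted p = 0.00183), and only 34 of its exon bases overlap Fbxo11 on the opposite strand. Ung, which removes uracil from DNA, had 920, 883 and 918 normalized reads with T3 and 903, 874 and 935 with vehicle, and the groups overlapped (log2 0.0051 ± 0.051 SE, limma adjusted p = 0.947).

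The 3 T3 libraries were not alike in this set, nor over the whole table. The mean chi-square per gene over the table, a measure of difference between libraries, was 5.11 between T3 replicates 1 and 2. For T3 replicate 3 it was 14.05 against T3 replicate 1 and 15.08 against T3 replicate 2. Between vehicle libraries it was 4.92 to 10.02. How often T3 replicate 3 is the highest T3 library over all genes was not counted. Relative to each gene's vehicle mean, the median over the 34 genes was 88.5%, 85.3% and 95.4% in T3 replicates 1 to 3, and 97.8% to 102% in the vehicle libraries. T3 replicate 3 was the highest T3 library in 30 of 34 genes and in 18 of the 19 that fell, and T3 replicate 2 was the lowest in 26. The exceptions were Tk1, E2f1 and Ung, highest in T3 replicate 1, and Rrm2, highest in T3 replicate 2 and lowest in T3 replicate 3. Without T3 replicate 3 the number of genes that fell was 23, and without T3 replicate 1 or T3 replicate 2 it was 13 each time. Over all genes tested 2755 fell without T3 replicate 3, 2070 without T3 replicate 1 and 2205 without T3 replicate 2, against 2716 with every library. Rrm2 and Cdc45 were called higher in all 6 sets without a library, and 13 of the 19 falls were called in all 6 sets. The 6 that were not are Mcm5, Pcna, Pole, Rfc2, Tk1 and Hells.

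In the authors' deposited table, at the same threshold on its adjusted p-value, 16 of the 34 genes were lower and 2 higher, where 15.8% and 19.3% of the 14398 genes with an adjusted p-value there were. All 18 were called in the same direction here. The authors' deposited table did not call Pcna, Rfc2 and Tk1, with adjusted p-values of 0.0541, 0.078 and 0.146.

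The windows with E2F-type letters belonged to 12 of the 29 genes with a RefSeq promoter. Of these 12, 10 fell, none rose, and the uncalled pair was Cdc6 and Mcm3, with a median log2 fold change of -0.24. Of the 17 genes with no match, 6 fell and both Rrm2 and Cdc45 rose, with a median of -0.094. Among genes outside the set that were tested, 107 of 462 with a match fell, or 23.2%, and 2043 of 9702 without one, or 21.1%. A match describes the letters in the window and no binding was measured.

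Tests covered 117 other genes of replication, its regulation, fork repair and nucleotide synthesis, in 7 lists, including general purine enzymes. Of these, 51 fell and 6 rose, or 43.6% and 5.13%, with a median log2 fold change of -0.14. These lists were chosen with earlier results of these data known. The share that fell ran from 12.5% among E2F factors and pocket proteins to 68.2% in nucleotide synthesis. Among further licensing genes the share was 25.0%, near the background of 20.8%, with the deposited scaling. Among 23 further polymerase, clamp and lagging strand genes 11 fell and none rose. Rfc3, a clamp loader subunit, had 868, 783 and 902 normalized reads with T3, against 1195, 1212 and 1285 with vehicle, and fell by 30.9% (log2 -0.53 ± 0.063 SE, limma adjusted p = 0.000107). Dscc1, part of an alternative clamp loader, fell by 25.7%, the nuclease Dna2 fell by 13.2% and the loader subunit Rfc1 fell by 12.3%. Of 8 further licensing genes 2 fell with the deposited scaling, and 5 fell under both other scalings. Over all 13052 genes tested, the falls under those scalings were 3474 (upper-quartile) and 3851 (equal totals). Orc3 fell by 18.4% and Orc5 fell by 17.5%, both subunits of the origin recognition complex. Of 13 genes of helicase activation and the fork, 5 fell and 1 rose, and without T3 replicate 1 or T3 replicate 2 only 2 fell. Donson, a factor in helicase assembly, was the one that rose, with 1047, 977 and 1060 normalized reads with T3 against 784, 799 and 868 with vehicle (log2 0.33 ± 0.059 SE, limma adjusted p = 0.00149). Timeless, a fork protection protein, fell by 14.1%, while Ticrr and Topbp1, which act in origin firing, fell by 16.9% and 11.5%.

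Further nucleotide supply genes had the largest share of falls among these lists, 15 of 22, with 1 rise (Rrm2b). Dctd, the deaminase that turns dCMP into dUMP for Tyms, had 712, 702 and 732 normalized reads with T3, against 1171, 1135 and 1195 with vehicle. It fell by 38.7% (log2 -0.71 ± 0.049 SE, limma adjusted p = 3.34e-06). The first enzyme of purine synthesis, Ppat, fell by 35.4%, the purine enzyme Paics by 26.4%, and Impdh2, which leads to guanine nucleotides, by 24.0%. These falls were larger than those of Tyms and Tk1 in values, a difference that was not tested.

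Of 19 genes of the replication checkpoint and fork repair 8 fell and none rose. Atr, the checkpoint kinase, fell by 28.4%, the nuclease Exo1 by 19.4% and Fanci, a crosslink repair protein, by 15.6%. Of 16 chromatin assembly and maintenance genes 8 fell and 1 rose. Rbbp7, a histone-binding subunit of several complexes, fell by 23.1%, the histone acetyltransferase Hat1 by 16.6% and the histone chaperone Nasp by 12.1%. Cdca7, which works with Hells, rose, with 6867, 6849 and 7089 normalized reads with T3 and 5938, 5611 and 6127 with vehicle (log2 0.24 ± 0.042 SE, limma adjusted p = 0.00147).

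In the list of E2F factors and pocket proteins 2 of 16 fell and 3 rose, with a median log2 fold change of 0.034. These shares, 12.5% and 18.8%, were both below those of all genes tested, 20.8% and 24.0%. Rb1, the retinoblastoma protein that holds activating E2F factors in check, had 1994, 2259 and 1998 normalized reads with T3, against 1315, 1276 and 1186 with vehicle. The groups were far apart, and Rb1 rose by 65.3% (log2 0.73 ± 0.062 SE, limma adjusted p = 1.24e-05). E2f2 and Lin9 rose by 10.7% and 13.3%, calls lost under both other scalings, and E2f6 fell by 8.83%, a call lost with a replicate block (adjusted p = 0.0784).

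Lists of neighbouring phases had smaller shares of falls than the 34 genes. Of 19 mitosis genes 1 fell and 3 rose, both below the background shares, with a median log2 fold change of 0.0067. Kif20a, a kinesin of cell division, fell by 17.9%, and the mitotic kinase Aurka rose by 14.3%. Rises of Top2a and Ccnb2 were 11.1% and 7.85% and were lost under both other scalings. Of 16 cyclins, kinases and inhibitors of G1 and S, 3 fell and 2 rose, or 18.8% and 12.5%, against 20.8% and 24.0% of all genes. Each of these 3 falls was larger than that of Orc1, the largest among the 34 genes. Ccnd2, a D-type cyclin, had 5841, 6039 and 6807 normalized reads with T3, against 10572, 10746 and 10887 with vehicle, and fell by 42.1% (log2 -0.79 ± 0.055 SE, limma adjusted p = 3.34e-06). Its kinase partner Cdk4 fell by 25.1% and the inhibitor Cdkn1c by 32.3%, while Ccnd1 rose by 19.9%. The difference between lists was not tested.

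**Figure D4:**
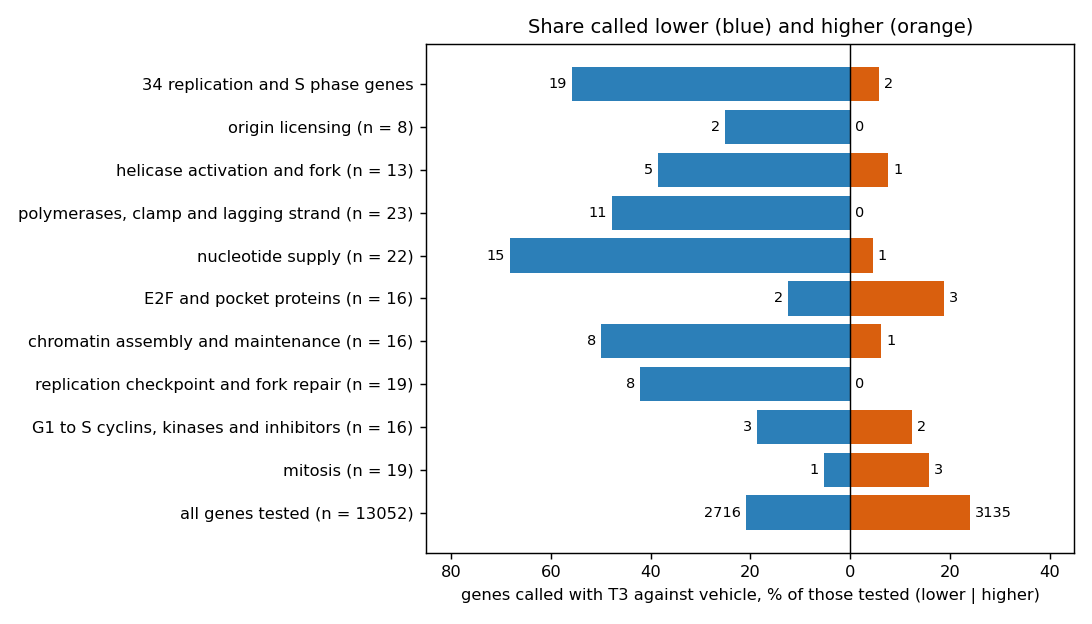
Share of tested genes called lower (blue, left) and higher (orange, right) with T3 against vehicle at an adjusted p under 0.05. Bars show the 34 genes, 7 lists of related genes, 2 lists of neighbouring cell cycle phases and all genes tested. The related lists cover replication, its regulation, fork repair and nucleotide synthesis, including general purine enzymes. The number called is beside each bar. The blue bar of the 34 genes reaches 55.9%, against 20.8% for all genes and 5.26% for mitosis genes.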

How the data were processed

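RNA from 3 T3 and 3 vehicle libraries was sequenced by directional RNA-seq, per the labels. STAR, Subread and DESeq2 are named without versions in the submitters' processing notes, the mm10 (GRCm38) build is in the column names per the file headers, and no source used here gives the strand setting used for counting. The deposited sample columns hold a normalized score, reads per gene scaled and rounded to whole numbers: the mean column of the authors equals their mean within 0.833 in every gene. The deposited log2 fold changes and deposited p-values are from the authors' own comparison, and exon length and positions come with them.

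Scaled and rounded values are not counts, so no count model was used, and total read depth is known only as scaled column totals. T3 was compared with vehicle on log2(value + 1) by limma 3.58.1, run in R 4.3.3 with a mean-variance trend and no replicate block, for 13052 genes that reached 10 normalized reads in 3 or more libraries, with Benjamini-Hochberg adjustment over all of them and a call at an adjusted p under 0.05. Printed log2 fold changes carry that pseudocount, which understates changes of low genes, and percentages are computed from them. Libraries of a group differed from each other by more than sampling noise (mean chi-square per gene from 4.92 to 15.1), so each was kept. The script was tested on simulated data.

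The 34 genes and all lists were chosen with earlier results of these data known. Values in every library are given for up to 4 called genes with the smallest p-value in each role and for the gene with the highest level per kilobase, and up to 4 called genes with the smallest p-value are named from each other list; Rrm2b and genes named beside a count were added after their values were seen. Pclaf was not matched by symbol. Some listed genes are not reported here by name. Alternatives were other scalings, filters, pseudocounts, variance models and thresholds, a replicate block, each library left out, and the authors' comparison. Genes with exons that overlap another gene are uncertain, since reads of the partners could be mixed.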

Additional observations from a re-analysis of the deposited data

How the results depend on the processing

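The count of the 34 genes that rose was 2 under every alternative, and the count that fell ran from 13 to 25, within 1.5 times of 19. It was 22 with upper-quartile scaling, 25 with equal column totals, 13 without the mean-variance trend, 16 without a filter on low values, 13 at a threshold of 0.01 and 16 in the authors' deposited table. Leaving out single libraries gave 13 to 23 falls, and 2070 to 2755 falls over all genes tested. With the replicate number as a block 18 fell and 2 rose, Tk1 being the call lost (adjusted p = 0.074), and same-numbered libraries did not deviate together (r = -0.0701, 0.0278 and -0.0568), nor did every library correlate best with its own number.

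Among the other replication genes, where 51 fell and 6 rose, 27 fell and 3 rose at a threshold of 0.01, 3 rose in the authors' deposited table, and leaving out single libraries gave 33 to 61 falls, with 33 without T3 replicate 1, and 4 to 9 rises. Without vehicle replicate 1 the rises were 9. By list, falls among helicase activation and fork genes, 5 in all, were 2 without T3 replicate 1 or 2 and 3 without vehicle replicate 1 or 3, and falls among chromatin genes, 8 in all, were 4 without T3 replicate 1 or 2 and 5 without vehicle replicate 3. Checkpoint and fork repair falls, 8 in all, were 5 without T3 replicate 1, and E2F and pocket protein calls ran from 0 to 3 lower and 1 to 4 higher. Falls among further licensing genes, 2 in the main test, were 5 under both other scalings and 4 at a threshold of 0.1. Over all genes 1753 fell at a threshold of 0.01, against 2716 at 0.05.

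Signs turned only for genes that were not called. With upper-quartile scaling and equal column totals the log2 fold change was -0.013 and -0.034 for Cdc6, -0.0095 and -0.030 for Fen1, -0.036 and -0.056 for Rrm1, and -0.041 and -0.061 for Ung. Without single libraries it ran from -0.085 to 0.0026 for Orc2, -0.022 to 0.073 for Cdc6, -0.022 to 0.042 for Rrm1 and -0.019 to 0.030 for Ung. The cause of these changes was not tested. Falls under about 10% lie near what the spread of 3 libraries per group can show.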

Other observations

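The CCAAT box was found in 21 of 35 promoter windows of the replication genes, or 60.0%, and in 37.4% of all windows. Of 18 genes with a CCAAT box 9 fell and 2 rose, and of 11 without one 7 fell and none rose. Among genes outside the set that were tested, 21.7% of 4390 with the box fell and 25.6% rose. Of 5774 such genes without it, 20.7% fell and 23.8% rose. The hormone half-site AGGTCA, on either strand, was found in 4 of 35 windows, or 11.4%, and in 16.3% of all windows. Those 4 windows belong to Pcna, Mcm2, Uhrf1 and Fen1, of which Pcna and Uhrf1 fell, and the windows of Rrm2 and Cdc45 held none. Of 1517 tested genes outside the set with this half-site, 19.2% fell and 29.3% rose. Of 8647 such genes without it, 21.5% fell and 23.7% rose, a difference that was not tested. The median GC content was 58.3% in windows of the replication genes and 52.7% in all windows, and its part in the motif shares was not tested.

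The exons of 7 of the 34 genes overlap those of another listed gene on the opposite strand. The partners of Mcm2 and Rrm2, which have no symbol in the table, were listed at 0 in every library, and that of Lig1, 6330408A02Rik, averaged 156 normalized reads with T3 and 174 with vehicle. Ccna2 and Cdk1, a cyclin and its kinase from the G1 and S list, were not called and overlapped between groups, with Ccna2 at 7544, 7585 and 7874 normalized reads with T3 against 7722, 7374 and 7437 with vehicle, and Cdk1 at 4925, 4818 and 4964 against 4886, 4810 and 5042.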
